A study of Xenopus tropicalis x Xenopus laevis and Xenopus tropicalis with 6 samples.

Results

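The embryos described here are normal *X. tropicalis* whole embryos collected 7 hours after fertilization, sequenced in a series that also holds *Xenopus* hybrids. They are the 3 libraries labelled *Xenopus tropicalis* (replicates 37, 38 and 39) among the 6 libraries of the series, which describes its replicates as biological. The labels name no treatment and do not say how many embryos went into a library. The counts are those on the 18062 *X. tropicalis* features of a table of 45244 features, and the values below are CPM, counts divided by the library's total on *X. tropicalis* features and scaled to 1000000. Values given as a series of 3 are those of libraries 37, 38 and 39 in that order. Gene lengths were not used here, so CPM is a share of the counted reads, and the order of different genes by CPM is an order of reads and not of molecules.

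A frog egg is loaded with maternal RNA that drives the first cleavages while the embryonic genome is silent. Transcription of the embryonic genome begins at the mid-blastula transition, and by early gastrulation the mesoderm, endoderm and ectoderm are being set apart by Nodal, Wnt, FGF and BMP signals. RNA of whole embryos at that time is a mixture of leftover maternal transcripts and new zygotic ones, and a total count cannot separate them for a gene that has both. It also cannot tell fewer cells of a type from less RNA per cell.

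The libraries held 89346551, 84807326 and 94302441 counts on *X. tropicalis* features, so 1 CPM stands for 84.8 to 94.3 counts. Of the 18062 features, 11034 reached 1 CPM in each of the 3 libraries (61.1%), which is called detected below, and 1289 had no count in any of them. For reads counted on the feature itself, a count of 0 over the 3 libraries allows up to 0.0112 CPM (3 counts over the 3 libraries, counting error only). It does not bound the level of the gene where its reads may be counted elsewhere. The genes *ckm* and *en2* had 0 counts, with 3.09 and 2.53 CPM on *X. laevis* features of their symbols. Of the 11300 features named by a gene symbol, from which all list members below come, 8640 were detected (76.5%), with a median of 23.2 CPM. Of these 11300 features 21.4% averaged at least 100 CPM. The median of all features stood at 7.26 CPM, 2708 features averaged at least 100 CPM (15.0%) and 66 at least 1000 CPM. The features that together held 50% of the counts numbered 990, 1033 and 1057. Further down the ranking the libraries were close as well, with 4818, 4936 and 4967 features holding 90% of the counts.

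Over all features, library 38 had the most with a count, 15380 against 14280 in library 37 and 14519 in library 39. At higher levels library 37 stood somewhat apart. Among 8416 features with a mean of at least 10 CPM it was more than 2-fold below both others for 107 features, against 43 for library 38 and 34 for library 39. It was more than 2-fold above both others for 31 features, against 23 and 15. Over the same features the median absolute log2 ratio was 0.27 between libraries 37 and 38, 0.24 between 37 and 39 and 0.19 between 38 and 39. Every pair differed by more than sampling of reads gives, with chi-square values of 181, 160 and 109.8 for each degree of freedom in the same order of pairs, so no pair met the criterion for a repeat deposit.

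The symbol with the most counts was *anp32c*, of the acidic nuclear phosphoprotein family, at 8216, 6211 and 6026 CPM (mean 6818 ± 1215, SD, n = 3). Library 37 was the high one. The chromatin protein gene *hmgb3* followed at 4806, 4499 and 4076 CPM, the arginine methyltransferase gene *prmt1* at 3139, 3494 and 3403 CPM and the cold-inducible RNA-binding protein gene *cirbp* at 2955, 3168 and 2882 CPM. These 4 stood in the same order in each library, while the ranges of *prmt1* and *cirbp* overlapped between libraries. Together the 20 symbols with the most counts held 5.15% ± 0.253 of the counts (SD, n = 3).

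From rank 8 to rank 24 the means of the named symbols lay close together, and neighbours overlapped in their library values. The oocyte form of elongation factor 1 alpha, *eef1a1o*, stood at 2505, 2482 and 2428 CPM, the least variable of the 20, with its highest library 1.03 times its lowest. The poly(A)-binding protein gene *pabpc1* stood at 2272, 2663 and 2129 CPM and the lamin B1 gene *lmnb1* at 2637, 2136 and 2223 CPM. Splicing and helicase genes in this range were *sfpq* (mean 2235 CPM), *hnrnpu* (2165 CPM), *ddx5* (2079 CPM), *ddx39a* (1922 CPM) and *srsf1* (1744 CPM). The cell cycle was represented by geminin, *gmnn*, which limits replication licensing, at 2187, 2087 and 1940.4 CPM, by the Ran exchange factor gene *rcc1* at a mean of 2053 CPM, and by a cyclin B1 gene, *ccnb1.2*, at 1629, 2321 and 2046 CPM. For the cyclin library 38 stood at 1.42 times library 37, the largest ratio of highest to lowest among the 20, while by coefficient of variation *anp32c* was the wider (17.8% against 17.4%). The pluripotency factor gene *sall4* stood at 2180.2, 2492 and 2384 CPM and the epithelial adhesion gene *epcam* at 1975, 2448 and 2151 CPM. The lysosomal protease gene *ctsb* (2215 CPM), the phosphatase subunit gene *smek2* (1674 CPM) and *MGC75700*, which carries the human name of the ADP/ATP carrier *SLC25A5* (2051 CPM), completed the 20. Ranks 2 and 6 went to features of one scaffold that carry only a model number and no human gene name, at means of 5322 and 2550 CPM.

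**Figure D1:**
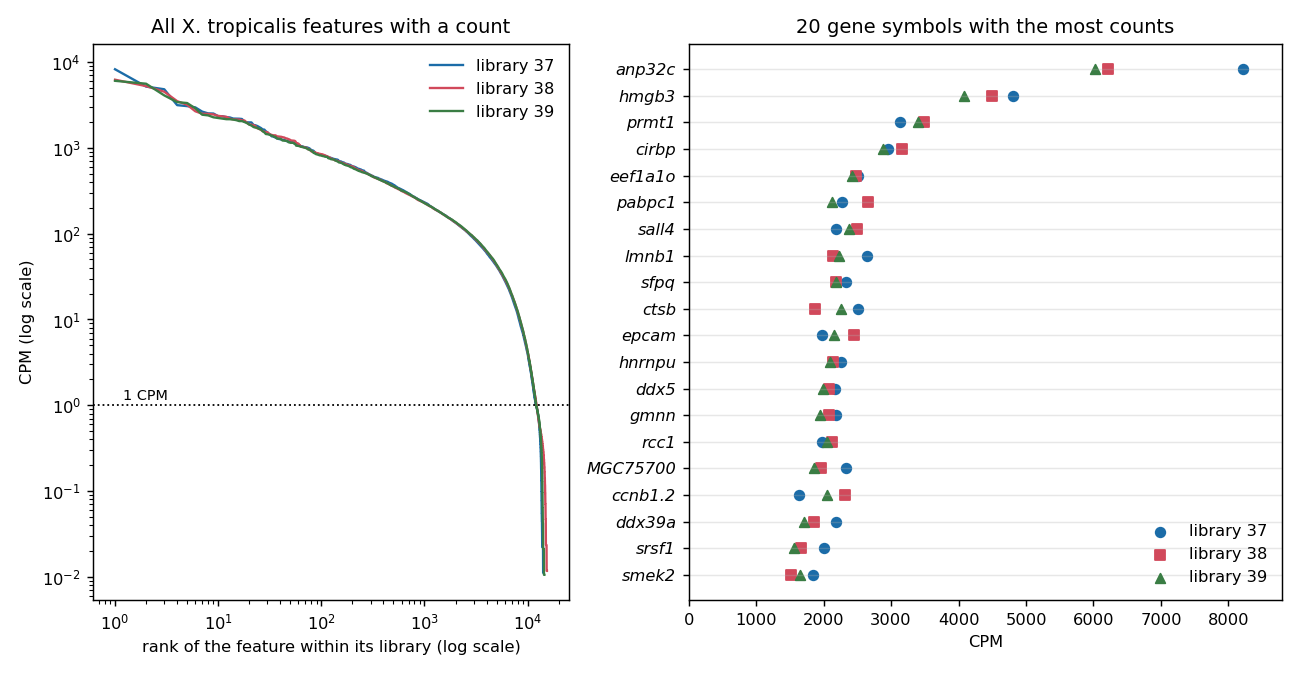
Left, CPM of every *X. tropicalis* feature with a count against its rank within its library, both axes on log scales, 1 line per library. Right, CPM of the 20 gene symbols with the most counts, 1 point per library. The 3 curves lie on each other over most of their length, and *anp32c* in library 37 is the highest symbol at 8216 CPM.

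RNAs known to be stored in the egg were present throughout, and their counts do not separate maternal from zygotic reads. In the list of vegetal and germ plasm RNAs, some of which the oocyte places at its vegetal cortex, 19 of 19 matched members were detected. The shares to set beside this are 76.5% of features with a symbol and 61.1% of all features. The list's median was 83.9 CPM, against 23.2 CPM and 7.26 CPM. The T-box gene *vegt*, a maternal activator of endoderm and mesoderm genes, had the most reads of the list at 999, 955 and 1057 CPM. The libraries lay within 1.11-fold of each other. The lipid droplet gene *plin2* stood at 426, 469.6 and 507 CPM, *rtn3* at 207, 159 and 213 CPM and the ubiquitin ligase gene *trim36*, needed for the vegetal cytoskeleton of the egg, at 185, 167 and 190.0 CPM. Germ plasm components, which mark the future germ cells, had fewer reads. The RNA helicase gene *ddx25* stood at 141, 122 and 147 CPM, the helicase gene *ddx4* at a mean of 94.9 CPM ± 4.40 (SD, n = 3) and the RNA-binding protein gene *dazl* at 101, 78.6 and 94.2 CPM. The translational repressor gene *nanos1* stood at 62.2, 100.3 and 89.1 CPM, with library 37 the low one. *rbpms2* stood at 114, 146 and 176 CPM and *dnd1* at 42.4, 50.1 and 65.2 CPM. The lowest members were the Piwi genes *piwil2* (13.0 CPM ± 3.11) and *piwil1* (9.31 CPM ± 5.07, SD, n = 3). The summed list stood at 2878, 2746 and 3197 CPM.

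Among maternal patterning factors 22 of 23 matched members were detected (95.7%), against 76.5% of features with a symbol. At 100 CPM or more stood 14 of them, against 21.4% of features with a symbol, and the median was 146 CPM. The Wnt effector gene *ctnnb1* (beta-catenin) stood at 1791, 1396 and 1746 CPM and the Wnt receptor gene *fzd7* at 694, 680.1 and 798 CPM. *yy1*, a zinc finger factor, stood at 633, 651 and 649 CPM. The animal-pole transcription factor genes *sox3* and *foxi2* stood at 492, 623 and 557 CPM and at 273, 311 and 348 CPM. *foxh1*, the partner of Smad2 in the Nodal response, stood at 192, 181 and 213 CPM. Of the Oct4-related genes in the list, *pou5f3.3* is the maternal one. It stood at 116, 94.5 and 106 CPM, with another 45.4 CPM on *X. laevis* features of that symbol. *pou5f3.1* stood at 273, 239.8 and 313 CPM. The list is thus not of maternal genes alone, and its counts do not separate maternal from zygotic reads. The Tcf genes differed widely in reads: *tcf7l1* stood at 65.8, 71.6 and 74.0 CPM, *lef1* at 2.93, 3.14 and 1.77 CPM with another 3.02 CPM on *X. laevis* features, and *tcf7l2* at 0.694, 0 and 0.954 CPM was the member not detected. For *tcf7l1*, *X. laevis* features of the same symbol took another 188 CPM.

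Oocyte and egg genes were also read, with 28 of 29 matched members detected (96.6%), against 76.5% of features with a symbol. The list had a median of 86.9 CPM and a summed level of 6042, 6424 and 6390 CPM. The gene *eef1a1o* alone took 39.3% of the summed list. After it came genes of the cell cycle, *ccnb2* at 457, 593 and 548 CPM and *plk1* at 476, 544 and 503 CPM. Further cyclin genes were *ccna1* at 452, 529 and 505 CPM and *ccnb1* at 234, 242 and 296 CPM. The counts of this list do not separate reads left from the egg from zygotic ones. The oocyte lamin gene *lmnb3* stood at 256, 195 and 221 CPM. Genes of the egg coat were read as well: *zpax* stood at 189 CPM ± 2.19, *zp2* at 159 CPM ± 5.33, *zpd* at 151 CPM ± 14.8 and *zp4* at 112 CPM ± 6.22 (SD, n = 3). The embryonic linker histone gene *h1foo* stood at 118, 227 and 193 CPM and the egg nucleoplasmin gene *npm2* at 61.6, 103 and 89.2 CPM, both lowest in library 37. The kinase gene *mos*, which holds the egg in meiosis, stood at 14.0, 14.0 and 17.7 CPM, the translational control genes *cpeb1* at 36.9 CPM ± 3.22 and *zar1* at 10.6 CPM ± 3.34 (SD, n = 3), and the member not detected, the meiosis gene *sycp3*, at 0.761, 0.955 and 2.1 CPM.

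Egg-type and general copies of the same family were both read in these embryos. For elongation factor 1 alpha the egg-type *eef1a1o* averaged 2472 CPM ± 39.6 and the general *eef1a1* 1251 CPM ± 75.9. For cyclin A, *ccna1* averaged 495 CPM ± 39.5 and *ccna2* 751 CPM ± 31.2. For poly(A)-binding proteins, *pabpc1l* averaged 51.2 CPM ± 7.51 and *pabpc1* 2355 CPM ± 276. For B-type lamins, *lmnb3* averaged 224 CPM ± 30.3 and *lmnb1* 2332 CPM ± 268. For nucleoplasmins, *npm2* averaged 84.7 CPM ± 21.1 and *npm1* 1173 CPM ± 114. For LSM14, *lsm14b* averaged 12.3 CPM ± 4.73, with another 11.2 CPM on *X. laevis* features, and *lsm14a* 573 CPM ± 21.8. For the PAT1 family *patl2* averaged 162 CPM ± 29.1 and *patl1* 198 CPM ± 28, and here library 38 held more reads of *patl2* (193 against 179 CPM) while the other libraries held more of *patl1*. For BTG deadenylation adaptors *btg4* averaged 11.8 CPM ± 6.74 and *btg1* 378 CPM ± 45.6. Of the Cdc25 phosphatase genes, neither of them called egg-type here, *cdc25c* averaged 139 CPM ± 22.8 and *cdc25a* 509 CPM ± 42.9 (SD, n = 3 for each). Without lengths these pairs give read shares side by side and no ratio of molecules. The kinase gene *wee2* (65.8 CPM ± 22.7) and the Y-box gene *ybx1* (661 CPM ± 46.4) had no partner matched by symbol.

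The first zygotic genes spanned a wide range of levels. Of 18 matched early targets of maternal Wnt, VegT and Nodal, 14 were detected, 3 stood at 100 CPM or more and the median was 11.4 CPM. The share detected is close to the 76.5% of features with a symbol, and the median is below their 23.2 CPM. Of features with a symbol, 21.4% averaged at least 100 CPM. The homeobox gene *mix1* stood at 227, 307 and 304 CPM. The TGF-beta ligand gene *gdf3* stood at 210.4, 206 and 255 CPM and the secreted factor gene *pnhd* (pinhead) at 239, 185 and 202 CPM. *lefty*, a Nodal antagonist, stood at 92.8, 88.6 and 96.4 CPM. The dorsal homeobox genes *sia1* and *sia2*, among the first to be switched on by maternal Wnt, were low at 1.88, 2.89 and 3.18 CPM and at 0.783, 0.495 and 0.382 CPM.

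The Nodal ligand genes covered a wide range. *nodal3.2* stood at 61.5, 76.0 and 63.9 CPM, *nodal2* at 27.5, 24.8 and 29.7 CPM, *nodal* at 11.4, 10.7 and 13.0 CPM and *nodal1* at 6.85, 12.42 and 14.1 CPM. *nodal6* stood at 3.41, 5.66 and 8.31 CPM and *nodal5* at 0, 0.660 and 2.13 CPM. Library 37 was the lowest for *nodal3.2*, *nodal3.1*, *nodal1*, *nodal6*, *nodal5.2* and *nodal5*, and library 38 for *nodal2* and *nodal*. Copies in this family, the *bix1* genes, the *sox17b* genes and the *ventx* genes are close in sequence, and how the authors' counting split shared reads among them is not given in the sources used here.

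Markers of each germ layer were present in every library. Of the endoderm list 21 of 23 matched members were detected (91.3%, against 76.5% of features with a symbol), with a median of 43.9 CPM. *mixer*, a homeobox activator of endoderm genes, had the most reads at 1358, 1124 and 1200.5 CPM (rank 45 of all features). The forkhead gene *foxa4* followed *vegt* at 338, 273 and 324 CPM. *otx2* stood at 269, 236 and 232 CPM and the T-box gene *eomes* at 232, 185 and 188 CPM. The organizer list also holds *foxa4* and *otx2*, and the neural list also holds *otx2*, so their reads are not of endoderm alone. The GATA factor genes stood at 201, 171 and 161 CPM for *gata4*, at 151, 79.4 and 138 CPM for *gata6* and at 28.4, 25.4 and 25.6 CPM for *gata5*. For *gata6* library 38 was the low one. The Sox17 genes, which fix the endodermal fate, stood at 108, 77.6 and 103 CPM for *sox17a*, 46.5, 49.3 and 54.9 CPM for *sox17b.2* and 45.4, 42.2 and 44 CPM for *sox17b.1*. Later endoderm factors had few reads, *foxa1* at 13.1 CPM ± 2.34 and *foxa2* at 2.39 CPM ± 0.802 (SD, n = 3), and *a2m* had no count in any library.

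In mesoderm 22 of 29 matched members were detected and the median was 9.37 CPM, which is a share close to that of features with a symbol and a median below theirs. The members with the most reads were well above that median. The most read was *vegt*, the maternal activator named above, at a mean of 1004 CPM and 41.9% of the summed list. Its counts do not separate maternal from zygotic reads. *eomes* averaged 202 CPM. Brachyury (*t*), the T-box gene of the mesodermal ring, stood at 154, 156 and 177 CPM and the paraxial protocadherin gene *pcdh8.2* at 479, 347 and 479 CPM. *snai1* stood at 133, 147 and 146 CPM, the apelin receptor gene *aplnr* at 155, 104 and 113 CPM and the ventrolateral Wnt ligand gene *wnt8a* at 99.9, 98.1 and 91.1 CPM. Muscle and somite regulators had few reads. *myf5* stood at 12.7, 9.63 and 5.81 CPM, while *myod1* had 0, 44 and 0 counts and *msgn1* 72, 2 and 0 counts. For *myod1*, *X. laevis* features of that symbol took another 0.672, 0.660 and 0 CPM. The posterior homeobox genes stood at 34.9 CPM ± 4.64 for *cdx4*, 15.3 CPM ± 3.04 for *cdx1* and 7.50 CPM ± 2.43 for *cdx2* (SD, n = 3). Of the mesodermal FGF ligand genes *fgf8* stood at 23.0 CPM ± 1.41, with another 15.6 CPM on *X. laevis* features, *fgf20* at 9.38 CPM ± 3.08 and *fgf3* at 2.24 CPM ± 0.794, and *fgf4* was not detected.

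The dorsal and the ventral programmes were both read. The organizer list holds genes of the dorsal lip that sends out BMP and Wnt antagonists. In it 20 of 23 matched members were detected (87.0%, against 76.5% of features with a symbol), with a median of 43.2 CPM. Its most read member was *foxa4* (mean 312 CPM), and *otx2* averaged 246 CPM, both given above with the endoderm. The BMP antagonist gene *chrd* stood at 222, 270.5 and 249 CPM, the Wnt antagonist gene *frzb* at 217, 206 and 241 CPM and the notochord homeobox gene *not* at 154, 200.1 and 206 CPM. Goosecoid (*gsc*) stood at 94.4, 106 and 109.9 CPM and *lhx1* at 80.6, 75.2 and 83.3 CPM. *cyp26a1*, which breaks down retinoic acid, stood at 149.6, 163 and 141 CPM. *admp*, a BMP-like ligand gene of the organizer, was more variable at 46.0, 67.5 and 86.3 CPM. The antagonist genes *dkk1* (31 CPM ± 7.71), *nog* (6.92 CPM ± 1.58) and *fst* (5.44 CPM ± 2.53, SD, n = 3) had fewer reads, and *shh* was not detected. *cer1* stood at 11.9, 17.2 and 16.7 CPM on its own feature and at 39.3 CPM on *X. laevis* features of that symbol.

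In the ventral and BMP list 21 of 22 matched members were detected (95.5%), against 76.5% of features with a symbol. The list had a median of 70.6 CPM and a summed level of 3662, 3819 and 3673 CPM. *id3*, a direct BMP target, stood at 1124, 1135 and 1012 CPM. Of the ligand genes *bmp7.2* stood at 852, 694 and 784 CPM, *bmp4* at 254, 244 and 243 CPM and *bmp2* at 72.8, 83.8 and 79.7 CPM, while *bmp7.1* stood at 2.96 CPM ± 0.210 (SD, n = 3). The ventral homeobox genes formed 3 pairs, with *ventx2.1* at 272, 329 and 287 CPM and *ventx2.2* at 133, 198 and 164 CPM, *ventx1.2* at 65.8, 63.0 and 89.2 CPM and *ventx1.1* at 44, 81.1 and 76.2 CPM, and *ventx3.2* at 43.2, 38.9 and 43.7 CPM and *ventx3.1* at 28, 41.6 and 43.9 CPM. The pseudoreceptor gene *bambi* stood at 173, 209.6 and 190.1 CPM, *gata2* at 205, 243 and 235 CPM and the antagonist gene *szl* (sizzled) at 39.6, 56.7 and 36.6 CPM. The late ventral homeobox gene *evx1* stood at 4.61, 2.71 and 1.68 CPM, with another 4.83 CPM on *X. laevis* features.

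Both ectoderm lists had members with many reads. Of the epidermis list 20 of 24 matched members were detected (83.3%), near the 76.5% of features with a symbol. At 100 CPM or more stood 12 of 24, against 21.4% of features with a symbol. The list had a median of 84.0 CPM and a summed level of 6769, 7855 and 7331 CPM. The adhesion gene *epcam* alone took 29.9% of that sum. Counts of whole embryos do not place the reads of these genes in the epidermis. After *epcam* came the tight junction gene *cldn6.1* at 1043, 1516 and 1514 CPM and the transcription factor gene *tfap2c* at 742, 956 and 834 CPM. Keratin genes of the surface layer stood at 714, 522 and 541 CPM for *krt5.7*, 397, 493 and 425 CPM for *krt18* and 445, 374 and 404 CPM for *krt8*. The ectodermal forkhead gene *foxi4.2* stood at 426, 428 and 382 CPM and the grainyhead genes *grhl3* and *grhl1* at 232, 203 and 209 CPM and at 188, 225 and 206 CPM. The basal epidermal factor gene *tp63* stood at 2.01, 3.61 and 8.67 CPM, and *krt19* had no count. *dlx3* was under 1 CPM in each library, with another 4.52 CPM on *X. laevis* features of that symbol.

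Of the neural list 25 of 34 matched members were detected, with a median of 25.6 CPM and a summed level of 8062, 8588 and 8163 CPM. Its share detected is near that of features with a symbol. Without *sall4* and *gmnn*, a choice made after the values were seen, the sum stood at 3695, 4010 and 3839 CPM. Beside *sall4* and *gmnn*, *sox11* stood at 953, 1076 and 961 CPM, *sall1* at 451, 473 and 469 CPM and *zic1* at 332, 313 and 325 CPM. *sox2*, the neural and pluripotency factor gene, stood at 232, 373 and 353 CPM, with library 37 the low one. The Iroquois genes stood at 58.9 CPM ± 9.73 for *irx2*, which had another 91.7 CPM on an *X. laevis* feature, 47.3 CPM ± 3.11 for *irx1* and 29.2 CPM ± 4.72 for *irx3* (SD, n = 3). Genes of a later, regional nervous system had few or no reads: *neurog2* stood at 9.65, 3.47 and 9.69 CPM, *pax6* at 0.336, 2.09 and 0.233 CPM, and *en2* had no count on its *X. tropicalis* feature. Several genes of this list are not neural alone, since *sall4*, *gmnn*, *sox3* and *zic2* are also known as egg or general early transcripts.

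**Figure D2:**
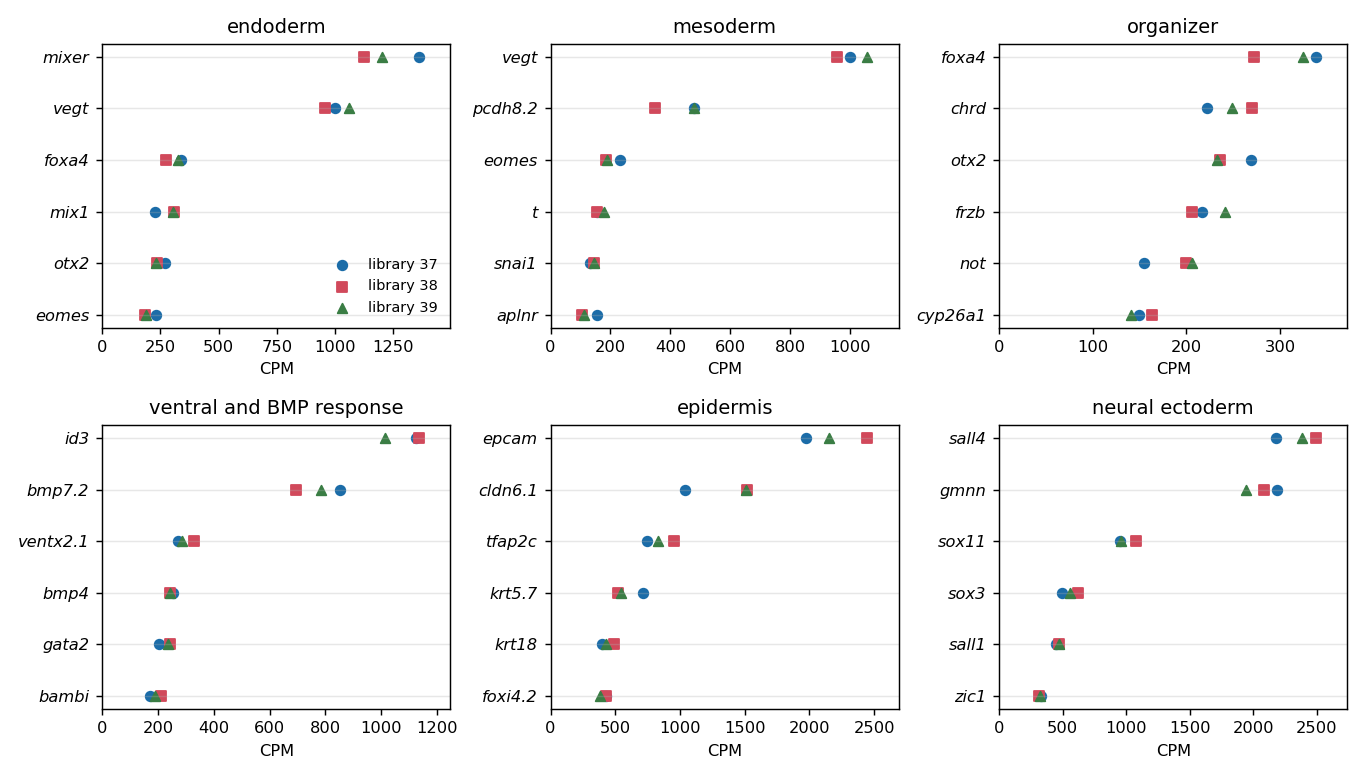
CPM of the 6 detected members with the most reads in each of 6 lists, 1 point per library. Axes differ between panels and start at 0. Most genes lie within a narrow band. Some have a library apart, among them *aplnr* in library 37 (155 CPM), *cldn6.1* in library 37 (1043 CPM) and *pcdh8.2* in library 38 (347 CPM).

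Signalling genes were read on both sides of the signal. Of 32 matched ligand genes 24 were detected with a median of 10.2 CPM, and of 46 matched receptor genes 36 were detected with a median of 33.2 CPM, both levels on the CPM scale without lengths. Both shares are near the 76.5% of features with a symbol. After *bmp7.2*, the ligand genes with the most reads were *efnb2* at 274, 215 and 272 CPM, *bmp4*, and the Notch ligand gene *dll1* at 144, 161 and 155 CPM. *wnt11b*, a maternal Wnt ligand gene, stood at 84.4, 67.4 and 94.9 CPM, while *wnt5a*, *wnt4*, *wnt7b* and *wnt10a* were not detected. After *fzd7*, the receptor genes with the most reads were *fgfr1* at 584, 589 and 602 CPM, the Nodal co-receptor gene *tdgf1.3* at 428, 384 and 428 CPM, *fgfr4* at 341, 426 and 429.9 CPM, the type I receptor gene *acvr1* at 339, 355 and 345 CPM and *notch2* at 375, 255 and 317 CPM. The activin and Nodal receptor genes *acvr2b* (64.1 CPM) and *acvr1b* (38 CPM) had more reads on *X. laevis* features of their symbols (108 and 44.9 CPM). Of receptor genes with a mean of at least 10 CPM, 5 of 33 varied more than 2-fold between libraries, among them *rara*, *tgfbr2*, *fzd4* and *epha2*, against 7.59% of all such features.

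Most matched markers of differentiated tissues were not detected, whereas 76.5% of features with a symbol and 61.1% of all features were. Symbols matched 11 of 18 listed muscle and heart markers and 10 of 28 for blood, liver and gut. For neuron, eye and glia they matched 12 of 21, and unmatched entries have no level here. Of 11 matched muscle and heart markers 0 were detected and 4 had no count, with a summed level of 0.672, 2.52 and 3.15 CPM. *X. laevis* features of the same symbols added 3.34 CPM, most of it on the creatine kinase gene *ckm* (3.09 CPM). Of 10 matched blood, liver and gut markers 2 were detected, the transferrin gene *tf* at 16.2 CPM ± 3.33 (SD, n = 3) and *ptf1a* at 2.22, 1.32 and 3.48 CPM. Of 12 matched neuron, eye and glia markers 4 were detected (33.3%). One of them, the homeobox gene *crx*, stood at 245, 228 and 225 CPM and took 87.9% of the summed list, and the others were *nefl* (14.2 CPM), *elavl3* (9.55 CPM) and *mbp* (5.83 CPM). In *X. laevis*, *crx* is an Otx-family gene known to be active in the gastrula. Of 14 matched cilium genes 7 were detected (50%), against 76.5% of features with a symbol and 61.1% of all features. The regulator gene *rfx2* stood at 402, 451 and 404 CPM, whereas the master regulator gene *foxj1* stood at 7.69, 18.0 and 16.8 CPM and the dynein gene *dnah5* at 8.35, 19.7 and 13.3 CPM.

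**Figure D3:**
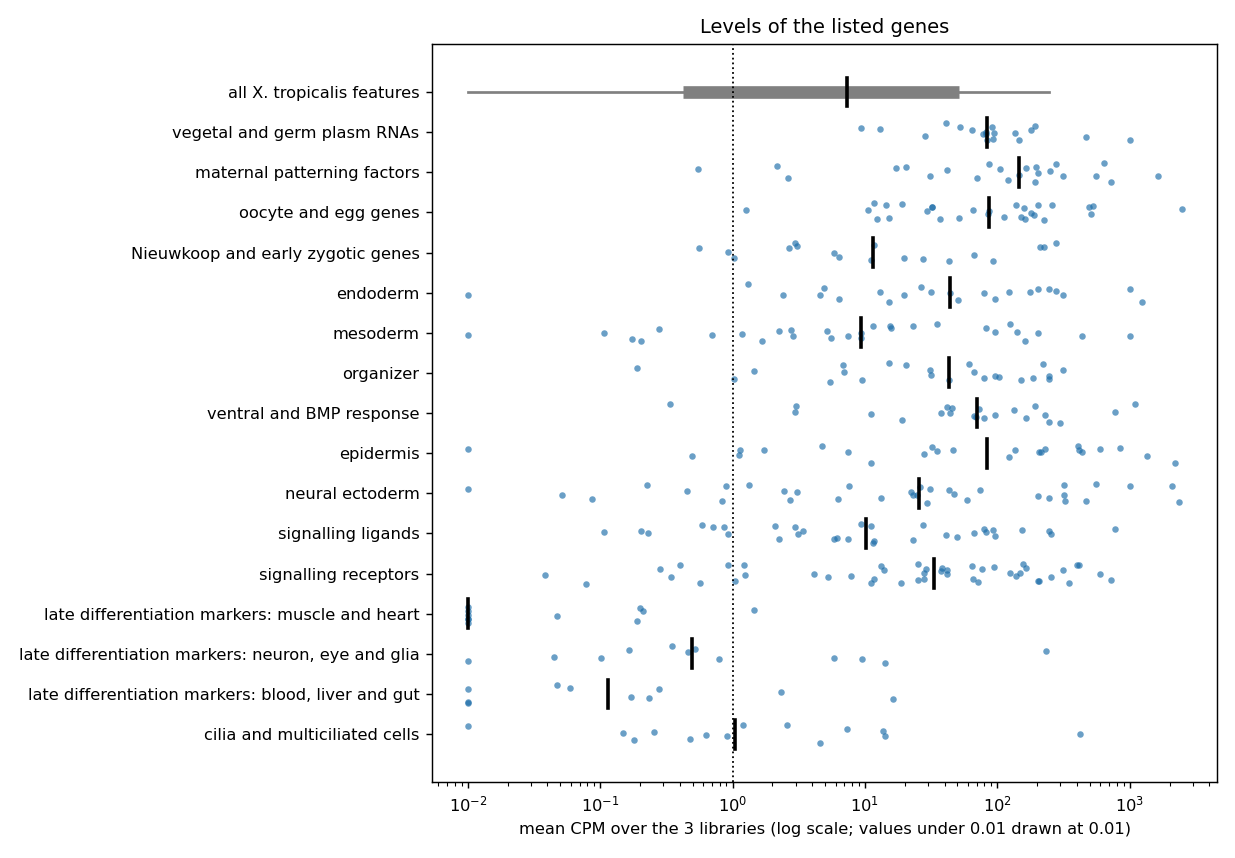
Mean CPM over the 3 libraries of every matched member of each list, on a log scale, with values under 0.01 drawn at 0.01. Black bars are medians, the grey band of all *X. tropicalis* features spans the middle 50% with a line from the 5th to the 95th percentile, and the dotted line is 1 CPM. The vegetal, maternal patterning and oocyte lists have medians from 83.9 to 146 CPM and the muscle and heart markers lie at the low end.

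The spread between libraries fell with the level and exceeded counting error at all levels. The median coefficient of variation over the 3 libraries was 41.4% for features at 1 to 10 CPM, 17.4% at 10 to 100 CPM, 9.85% at 100 to 1000 CPM and 8.24% above that. Counting error alone would give medians of 5.6%, 1.79%, 0.789% and 0.287%. Between 1 and 10 CPM, where the mean is at least 84.8 counts in a library, 198 of 3741 features had a library with no count at all. Over the 8416 features at 10 CPM or more the median coefficient was 14.3%, and 639 of them (7.59%) varied more than 2-fold. The common biological coefficient of variation from edgeR was 0.334 over 12286 features.

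Over all lists 199 members stood at 10 CPM or more, and 11 of them (5.53%) varied more than 2-fold, near the 7.59% of all such features. Among these members 0 of 17 in the endoderm list varied more than 2-fold, 0 of 13 in mesoderm, 0 of 16 in the organizer, 0 of 19 in the ventral list, 0 of 17 in epidermis and 0 of 21 in the neural list, with median coefficients from 10.2 to 13.2%. These members also have more reads than the typical feature, and their level was not matched here. In the oocyte and egg list 2 of 28 varied more than 2-fold, *btg4* at 6.19, 9.95 and 19.3 CPM and *gdf9* at 35.7, 18.9 and 41.3 CPM. In the vegetal list it was *grip2*, at 33.8, 12.1 and 39.8 CPM with another 29.1 CPM on *X. laevis* features, and in the early zygotic and ligand lists *nodal1*. In the cilium list 2 of 3 did, *foxj1* and *dnah5*, and in the receptor list the 5 of 33 given above.

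The library with the lowest sum differed from list to list. Library 38 was the lowest for the vegetal list, the maternal factors, endoderm (4174, 3694 and 4030.4 CPM), mesoderm (2505, 2202 and 2483 CPM), ligands and receptors. It was the highest for the oocyte and egg, ventral, epidermis and neural lists. Library 37 was the lowest for the ventral, epidermis, neural and oocyte and egg lists, and also for the early zygotic list (945, 1006 and 1074 CPM) and the organizer (1863, 1946 and 2022 CPM). The lists share genes, *vegt* being counted in 3 of those that were lowest in library 38. The part of embryo stage, embryo number or handling in these differences was not tested.

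Of the 10 features with the widest spread among those named by a symbol at a mean of 10 CPM or more, several were near 0 in 1 or 2 libraries. The phospholipase gene *pla2g12b* had 9, 2935 and 0 counts and the thromboxane receptor gene *tbxa2r* 1910, 1601 and 4 counts. *myo3b-like.1* had 9, 2486 and 2787 counts and the acetylcholine receptor subunit gene *chrnb4* 9, 1799 and 1521 counts. The glutathione transferase gene *gsta4* had 13, 2174 and 485 counts, *ptgr1.2* 2268, 376 and 85 counts and *tp53i3* 1872, 219 and 3149 counts. The high and the low library differed from gene to gene. The other 3 of the 10 widest were *caskin2-like*, *ankrd27-like* and *smpd2*, whose highest library was 7.34, 6.20 and 6.03 times the lowest.

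**Figure D4:**
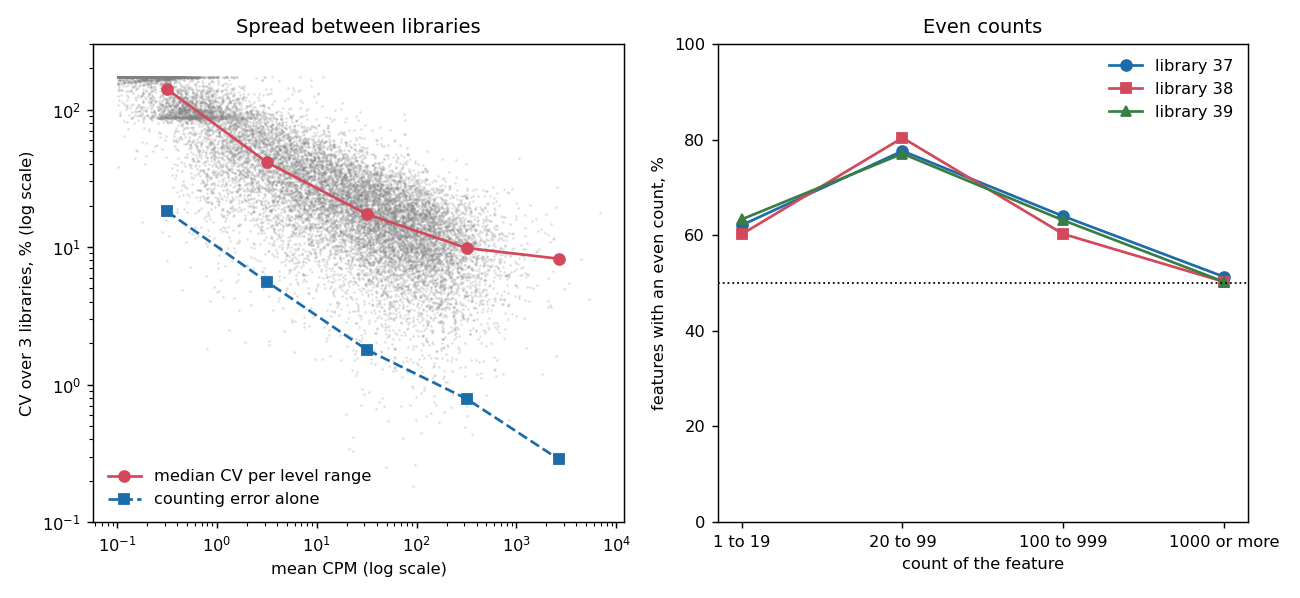
Left, coefficient of variation over the 3 libraries against mean CPM for every feature at 0.1 CPM or more, both axes on log scales, with the median per level range and the median expected from counting error alone. Right, percentage of features with an even count by the size of the count, 1 line per library, with a dotted line at 50%. Even counts peak at 77.1 to 80.4% for counts of 20 to 99.

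Even numbers were more frequent than odd ones among counts under 1000. Of features with 1 to 19 counts in a library, 62.1%, 60.2% and 63.3% had an even count. Of features with 20 to 99 counts in a library, 77.6%, 80.4% and 77.1% had an even count, against 50% if each read were counted on its own. The share was 64.0%, 60.3% and 63.1% for 100 to 999 counts and 51.3%, 50.3% and 50.3% for 1000 or more. Summed over the libraries a count of 2 occurred 765 times, a count of 1 481 times and a count of 3 108 times. Counting errors given here take each count as independent and may be too small.

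Reads of these embryos on *X. laevis* features were few for most genes and many for some. Of 244 detected list members 176 had an *X. laevis* feature of the same symbol, which took a median of 0.124% of the reads of both, over 10% for 34 members and over 50% for 11. The same shares over all features are not given here, so these counts are not a trait of the listed genes. Whether the reads on *X. laevis* features belong to the *X. tropicalis* gene of the same symbol was not tested, and the levels above leave them out. The *X. laevis* features took 5.33%, 5.92% and 5.72% of all counts.

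**Figure D5:**
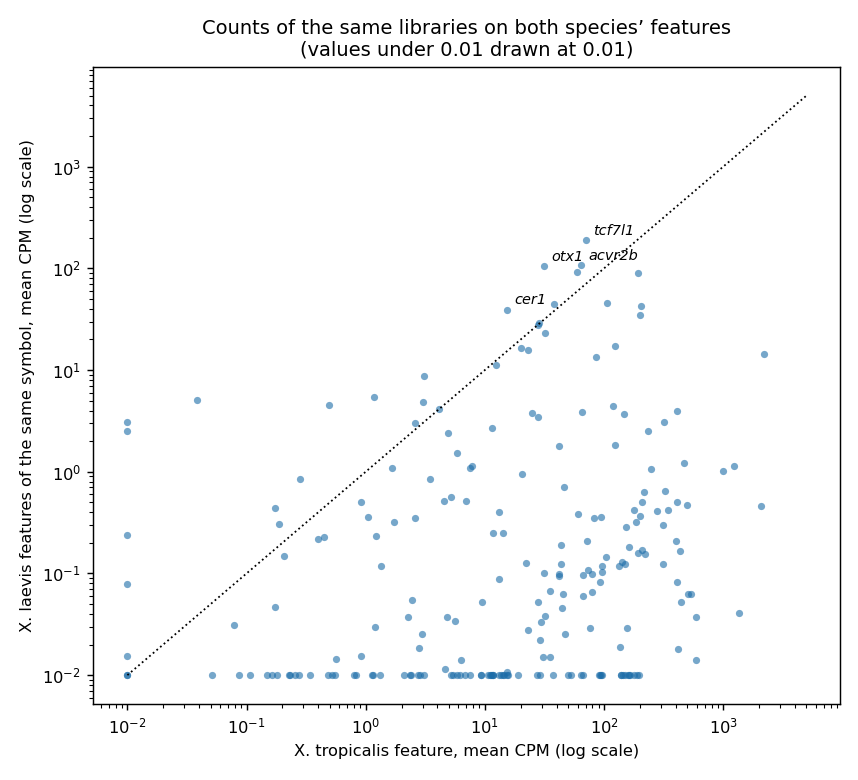
Mean CPM on *X. laevis* features of the same symbol against mean CPM on the *X. tropicalis* feature, for list members that have both, log scales with values under 0.01 drawn at 0.01. Points above the dotted line had more counts on *X. laevis* features, and *tcf7l1* (70.5 and 188 CPM on the 2 axes) is the highest of them.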

How the data were processed

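PolyA RNA of whole embryos was sequenced from PrepX libraries, per the labels' protocols. The values the authors deposited are whole-number counts of reads for each feature and were not scaled. BWA 0.7.10 was among the tools, per the submitters' processing notes. What the sources used here do not give is the counting program, the gene models, the build, any filter and the use of strand. Libraries were assigned from the labels, and the second deposited table, which adds counts up by human gene name, was not used. Features were taken as *X. tropicalis* from their names. No gene lengths or sequences were used, so the egg-type and general gene copies could not be compared per length.

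CPM are counts over the library's total on *X. tropicalis* features. No condition was compared and no test was run. Dispersion was estimated with edgeR 4.0.16 (R 4.3.3) without covariates, after its filter for low counts. The spread measures were tested on simulated counts. Replicate spread may be partly technical.

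The members and the 16 lists (369 of 489 entries matched by symbol, 324 features) were chosen with earlier results of these data known. Named are the 20 symbols with the most counts, the 6 detected members with the most counts of each list and the family pairs. Also named are the 10 widest spreads among features with a symbol at 10 CPM or more. Other list members were named after their values were seen. Figures were drawn with matplotlib 3.10.9. Some list members are not reported here.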

Additional observations from a re-analysis of the deposited data

Results flagged for a closer look

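The counts of these embryos on *X. laevis* features lie outside the main measurement, and for 16 list members they exceeded those on the *X. tropicalis* feature with a mean of at least 1 CPM. Among detected members these were *tcf7l1* (188 CPM on *X. laevis* features), *acvr2b* (108 CPM), *otx1* (105 CPM), *irx2* (91.7 CPM), *acvr1b* (44.9 CPM), *cer1* (39.3 CPM), *grip2* (29.1 CPM), *pdgfa* (8.67 CPM), *evx1* (4.83 CPM), *fzd1* (4.16 CPM) and *lef1* (3.02 CPM). Among members not detected on their own feature they were *msx2* (5.38 CPM), *rxra* (5.05 CPM), *dlx3* (4.52 CPM), *ckm* (3.09 CPM) and *en2* (2.53 CPM). For *ckm* and *en2* the *X. tropicalis* feature had no count. How many features outside the lists had more counts on *X. laevis* features is not given here. The part of shared sequence between the species was not tested. With 3 libraries, single samples were not tested as outliers.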

How the results depend on the processing

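The number of detected features was 11031 with TMM factors, 11038 with DESeq2 size factors, 10960 with library totals over all features, 9018 at 5 CPM and 12302 at 0.1 CPM. With library totals over all features the 20 symbols held 4.86% of the counts. That setting lowers every CPM, since 5.33 to 5.92% of all counts lay on *X. laevis* features. Without the filter for low counts the common coefficient of variation was 0.978 over 16773 features. Leaving out each library in turn gave 11286 to 11442 detected features and 248 detected list members. These counts could not fall, since detection asks for 1 CPM in each library kept. The 20 symbols then held 5.02 to 5.28%, with a median coefficient of 9.67 to 13.6% and a common coefficient of 0.328 to 0.361. These coefficients rest on fewer libraries than those above and are not directly comparable with them. The median coefficient was lowest without library 37. With totals over all features every summed list therefore fell, and for 5 of them the fall exceeded their SD. Adding *X. laevis* features of the same symbols can only raise a sum, and 3 lists rose by more than their SD. These were the maternal factors to 6278 CPM, the receptors to 5187 CPM and the muscle and heart markers to 5.46 CPM. Leaving *sall4* and *gmnn* out of the neural list, chosen after seeing the data, gave a mean sum of 3848 CPM. Ranking per coding length was not run, since no lengths were used. No paired analysis was possible because only 1 group was described.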

Other observations

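Gene families picked by symbol after the data had been seen gave further levels, beside a share of 76.5% detected among all features with a symbol. Of 20 Hox genes, which pattern the trunk later, 2 were detected, *hoxd1* (18.9 CPM) and *hoxb3* (4.55 CPM), and 4 had no count. Splicing genes were read throughout: 17 of 17 hnRNP genes were detected with a summed level of 11413, 11529 and 10600.0 CPM, and 11 of 11 SR factor genes with 7953, 8020.2 and 7441 CPM. All 6 MCM helicase genes, which license replication, were detected, from *mcm5* at 33.9 CPM to *mcm7* at 1353 CPM.

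Of 72 ribosomal protein genes 70 were detected, with *rps18* the most read at 230.3 CPM. At 100 CPM or more stood 11 of 72, against 21.4% of features with a symbol and 15.0% of all features. The ribosomal protein genes summed to 3236, 4438 and 3992 CPM, lowest in library 37. The complex I genes of the respiratory chain were also lowest in library 37, with a sum of 829, 952 and 995 CPM and 28 of 31 detected. So were the sums of the MCM, proteasome, *znf*, Hox, claudin and collagen genes. Library 39 was the lowest for the hnRNP, SR factor and translation initiation factor genes, and library 38 for the kinesin genes. Of 9 claudin genes 5 were detected (55.6%), among them *cldn4* at 781 CPM. Of 20 collagen genes 8 were detected (40%), with a median of 0.953 CPM. The shares to set beside these are 76.5% of features with a symbol and 61.1% of all features.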
